A study of Mus musculus with 16 samples.

Results

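The 4 genes Snhg1, Gas5, Eif4a2 and Rpl4 are hosts of small nucleolar RNAs (snoRNAs), and each carried dense peaks of RNA crosslinked in a CTCF CLIP experiment in mouse embryonic stem (ES) cells. They were chosen by name and mm9 position because same-strand CLIP peaks were dense along them, so their CLIP density describes the choice and is given without a test. They are 4 of the 42918 transcribed regions formed by merging overlapping same-strand rows of the nuclear RNA lists. Snhg1 spans chr19:8797986-8800932, Gas5 chr1:162964324-162968670, Eif4a2 chr16:23107358-23114522 and Rpl4 chr9:64021194-64026369, all on the plus strand. Their lengths are 2947, 4347, 7165 and 5176 bp. The files do not pair names with positions, so the names come with the chosen positions and not from the files.

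All cells were female hybrid mouse ES cells, sampled as differentiating cells grown 3 days without LIF off the culture surface (day 3) or as undifferentiated adherent cells with LIF (day 0). CLIP, which recovers RNA fixed to a protein by UV light, used Anti-FLAG M2 beads and UV-irradiated cells, with 2 libraries at day 3 and 2 at day 0. The antibody is against the FLAG tag, and the labels used here do not say how a tagged protein was expressed. ChIP-seq with an antibody against CTCF itself gave 1 library at day 3 and 2 at day 0, and a single library of nuclear RNA was sequenced per day. The CLIP and RNA cells carried the strain label CAST/Ei x 129/Sv/Jae, whereas the ChIP cells were labelled 129S1/CastEiJ x 129S1. Nothing in the labels says that the replicates were separate cultures, so their spread may be technical. ES cell marker genes could not be looked up, because the files hold positions without gene names. The CLIP lists held 106382 and 165695 peaks in day 3 replicates 1 and 2, and 114016 and 213181 peaks in day 0 replicates 1 and 2. The ChIP list held 41264 peaks at day 3, and 45377 and 76745 peaks in day 0 replicates 1 and 2. Read depth is unknown for these lists, and neither the CLIP controls without UV nor the ChIP inputs were analysed here.

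Most vertebrate snoRNAs are made from introns. The host gene is transcribed and spliced, the intron lariat is opened, and exonucleases trim it back to the snoRNA, which proteins protect. C/D box snoRNAs guide 2′-O-methylation of ribosomal RNA and H/ACA box snoRNAs guide pseudouridylation. Snhg1 and Gas5 are long noncoding hosts whose spliced RNA is a known target of nonsense-mediated decay, so that the snoRNAs are the stable product. Eif4a2 encodes a DEAD-box helicase of the eIF4A family that acts in translation initiation and in repression by microRNAs. Rpl4 encodes a protein of the large ribosomal subunit. Many snoRNA hosts, ribosomal protein genes among them, start transcription within a pyrimidine tract known as the 5′ terminal oligopyrimidine motif.

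In the RefSeq gene table of GRCm38.p6, used for names and neighbours only, 8 snoRNA genes lie inside Snhg1, 8 inside Gas5, 5 inside Eif4a2 and 5 inside Rpl4. Among them are Snord22 in Snhg1, Snord47 in Gas5, Snord2 and Snora81 in Eif4a2, and Snord16a in Rpl4. Of 35660 genes in that table, 483 (1.35%) hold at least 1 snoRNA gene and 8 (0.0224%) hold at least 5. The mm9 positions of the snoRNAs were not used here, so whether a CLIP peak lies on a snoRNA, the rest of an intron or an exon was not tested.

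The start windows of the hosts are shown because many snoRNA hosts are known for a pyrimidine tract at the start. Each window has 40 bases before and 20 bases from the RefSeq start, 5′ to 3′ on the plus strand of GRCm38.p6, and capitals mark the longest run of C and T that touches the 10 bases on either side of the start. RefSeq gives 2 starts for Gas5.
Snhg1 chr19:8723447-8723506: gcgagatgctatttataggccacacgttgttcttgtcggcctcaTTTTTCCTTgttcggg
Gas5 chr1:161034561-161034620: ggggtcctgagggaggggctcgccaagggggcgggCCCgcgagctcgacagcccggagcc
Gas5 chr1:161035126-161035185: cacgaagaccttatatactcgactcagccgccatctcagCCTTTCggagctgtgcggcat
Eif4a2 chr16:23107428-23107487: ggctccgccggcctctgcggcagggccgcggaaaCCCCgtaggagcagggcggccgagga
Rpl4 chr9:64173347-64173406: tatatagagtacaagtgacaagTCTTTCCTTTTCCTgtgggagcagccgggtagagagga

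The run was longest in Rpl4, with 14 bases, a length reached by 2.39% of 32851 promoters of the same table. Snhg1 had 9 bases, a length reached by 9.55% of promoters, and the downstream Gas5 start had 6, reached by 29.2%. The upstream Gas5 start had 3 bases and Eif4a2 had 4, lengths that 82.9% and 63.9% of promoters reach. By length alone, the runs near the start thus separated Rpl4 and Snhg1 from Eif4a2 and the upstream Gas5 start. Counted from the annotated start, the run began at base -18 in Rpl4, 5 in Snhg1 and -1 at the downstream Gas5 start. Only the run of the downstream Gas5 start crossed the annotated start, so length does not say whether transcription starts within a run. Over the 300-base promoters, GC content was 40.7% in Rpl4, 56.7% in Snhg1, 62.0% at the downstream and 73.7% at the upstream Gas5 start, and 67.7% in Eif4a2, beside a median of 52.7%. For the DNA site of CTCF, letters were searched on both strands of the 300-base promoters. AGGGGGCG, part of a common form of that site, was in 1 of the 5 promoters, the upstream one of Gas5, and in 6.07% of all. A match of letters is a description and not a site.

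CLIP peaks covered between 21.2% and 38.3% of each host gene in every library. Snhg1 had 220.6 peak bases per kb in both day 3 libraries, against 383.1 and 343.4 in the day 0 libraries. Gas5 had 279.5 and 256.7 peak bases per kb at day 3, against 336.1 and 279.96 at day 0. Eif4a2 had 212.1 and 240.6 peak bases per kb at day 3, against 308.3 and 370.3 at day 0. In these 3 genes both day 3 libraries lay below both day 0 libraries, by less than 1 base per kb in Gas5. Rpl4 had 213.7 and 269.3 peak bases per kb at day 3, against 328.6 and 273.4 at day 0, again without overlap between the days. Both day 3 libraries lay below both day 0 libraries in 18.5% of the 12325 regions with peaks in at least 2 libraries, and since the rule used these densities nothing is read from the 4 of 4. For scale, the median region among those over 1 kb long and listed at 1 FPKM or more had 2.62 and 5.24 peak bases per kb at day 3, and 2.21 and 5.10 at day 0. The 99th percentile of those regions was 96.8 and 116.1 at day 3, and 104.7 and 154.5 at day 0, so each host lay above it in every library.

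**Figure D1:**
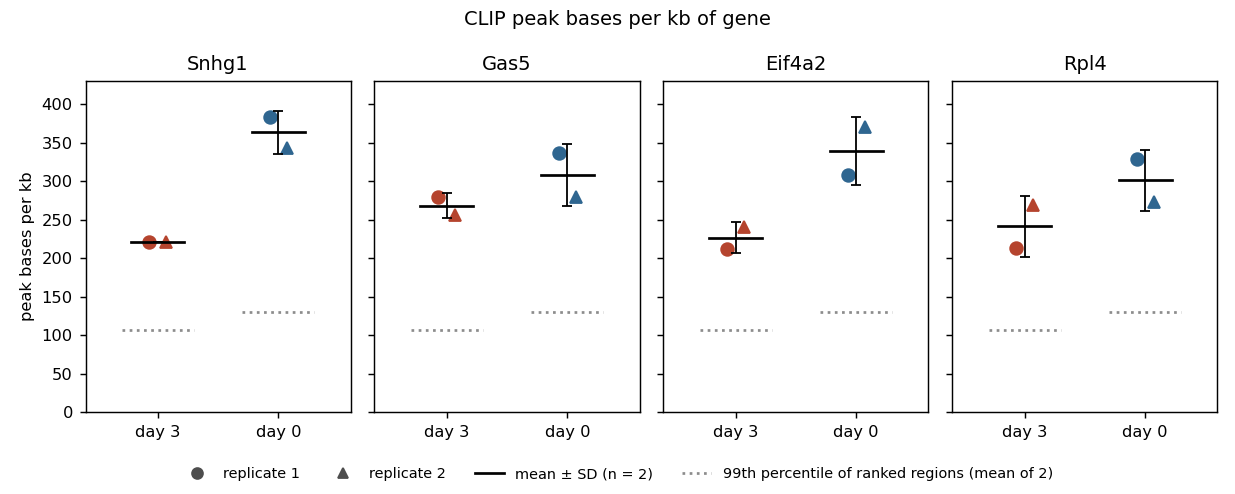
CLIP peak bases per kb (vertical axis) of the 4 host genes at day 3 (left) and day 0 (right), with replicate 1 as circles, replicate 2 as triangles, and black lines for the mean ± SD of 2 libraries. Dotted grey lines give the 99th percentile of the ranked regions, averaged over the 2 libraries of the day. Every point lies above its dotted line, and the day 3 points lie below the day 0 points in each gene.

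Ranked by mean density over the 4 libraries among 16569 such regions, the 4 hosts took neighbouring places. Snhg1 was 9th with 291.9 ± 83.96 peak bases per kb, Gas5 was 10th with 288.1 ± 33.8, Eif4a2 was 11th with 282.8 ± 70.9 and Rpl4 was 12th with 271.3 ± 46.96 (SD, n = 4 libraries of both days). The steps between these neighbours were smaller than the spread over libraries, so their order is not resolved. The region just above them, chr7:67120939-67125895 on the minus strand, had 296.9 ± 101.4, and the one just below, chr5:143664794-143668433 on the minus strand, had 270.8 ± 33.8. In single libraries the places ranged from 5 to 28. They were 19 and 28 at day 3, and 5 and 10 at day 0, for Snhg1. Gas5 was 12 and 19 at day 3, and 7 and 27 at day 0. Eif4a2 was 23 and 23 at day 3, and 9 and 5 at day 0, and Rpl4 was 21 and 17 at day 3, and 8 and 28 at day 0.

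The lists differ in size, with 4.71 and 6.80 Mb of peak bases at day 3 and 4.92 and 8.30 Mb at day 0, so densities were also scaled to the list. Per kb and per Mb of peak bases, Snhg1 averaged 39.6 ± 10.2 at day 3 and 59.6 ± 25.8 at day 0. Gas5 averaged 48.5 ± 15.2 at day 3 and 51.0 ± 24.5 at day 0, and Eif4a2 averaged 40.2 ± 6.82 at day 3 and 53.6 ± 12.8 at day 0. Rpl4 averaged 42.5 ± 4.07 at day 3 and 49.9 ± 24.0 at day 0 (SD, n = 2 each). On this scale the difference between days was below the larger SD in Snhg1, Gas5 and Rpl4, and above it by little in Eif4a2.

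All 4 hosts passed the filter of peaks in at least 2 libraries and were tested together with all other such regions by limma on log2 of peak bases per Mb of peak bases plus 1. At a Benjamini-Hochberg adjusted p of 0.05, 0 of 12325 regions (0.0%) were called between day 3 and day 0, 899 had an unadjusted p under 0.05, and none of the 4 hosts was called. The log2 difference of day 3 over day 0 was -0.54 ± 0.44 in Snhg1 (SE, limma adjusted p = 0.817) and -0.41 ± 0.31 in Eif4a2 (limma adjusted p = 0.810). It was -0.15 ± 0.40 in Rpl4 (limma adjusted p = 0.988) and -0.02 ± 0.44 in Gas5 (limma adjusted p = 0.999). Scaled to list size, the lower peak coverage at day 3 did not pass the test in any host, and a p of this size does not show that the days were alike. Leaving out 1 library leaves its day with 1 sample, which is then assumed to vary like the other day's 2 libraries. In such fits the count of called regions was 56 without day 3 replicate 1, 377 without day 3 replicate 2, 9 without day 0 replicate 1 and 0 without day 0 replicate 2. Gas5 was 0.30 without day 3 replicate 2 and 0.49 without day 0 replicate 1, and Rpl4 was 0.36 without day 0 replicate 1, on the same log2 scale in those fits.

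Along the genes the signal was cut into many short peaks rather than 1 block. Snhg1 held 22 and 21 peaks at day 3, against 28 and 29 at day 0, and Gas5 held 23 and 26 at day 3, against 35 and 38 at day 0. Eif4a2 held 38 and 38 peaks at day 3, against 48 and 51 at day 0, and Rpl4 held 22 and 37 at day 3, against 34 and 47 at day 0. Each host had fewer peaks in day 3 replicate 1 than in either day 0 library, and only in Rpl4 did a day 3 library, replicate 2, exceed a day 0 library. These counts were not scaled to list size, and day 3 replicate 1 had the shortest list. The share of all regions with such an order of peak counts was not computed and the rule used these peaks, so nothing is read from it. No peak overlapped any of the 4 genes on the opposite strand in any library. Median distances between the midpoints of neighbouring peaks ran from 71.25 bp in Gas5 in day 0 replicate 1 to 136 bp in Rpl4 in that library.

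Peaks in the hosts were often very short. Their median length was 40 and 31 bp in day 3 replicates 1 and 2, against 42 and 27 bp in day 0 replicates 1 and 2. The whole lists had medians of 47 and 36 bp at day 3, and 46 and 38 bp at day 0. The genes differed. Snhg1 lay below the list median in every library, with 25.5 and 22 bp at day 3, and 29 and 27 bp at day 0. Eif4a2 had 49.5 and 33.5 bp at day 3, and 46.5 and 47 bp at day 0, below the list median only in day 3 replicate 2. Gas5 and Rpl4 fell on either side of it. Peaks under 10 bp made up 16.2% and 23.8% of host peaks at day 3, and 17.9% and 30.9% at day 0. In the whole lists these were 6.56% and 2.45% at day 3, and 7.31% and 10.2% at day 0. The longest host peak had 294 bp, in Eif4a2 in day 3 replicate 2.

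**Figure D2:**
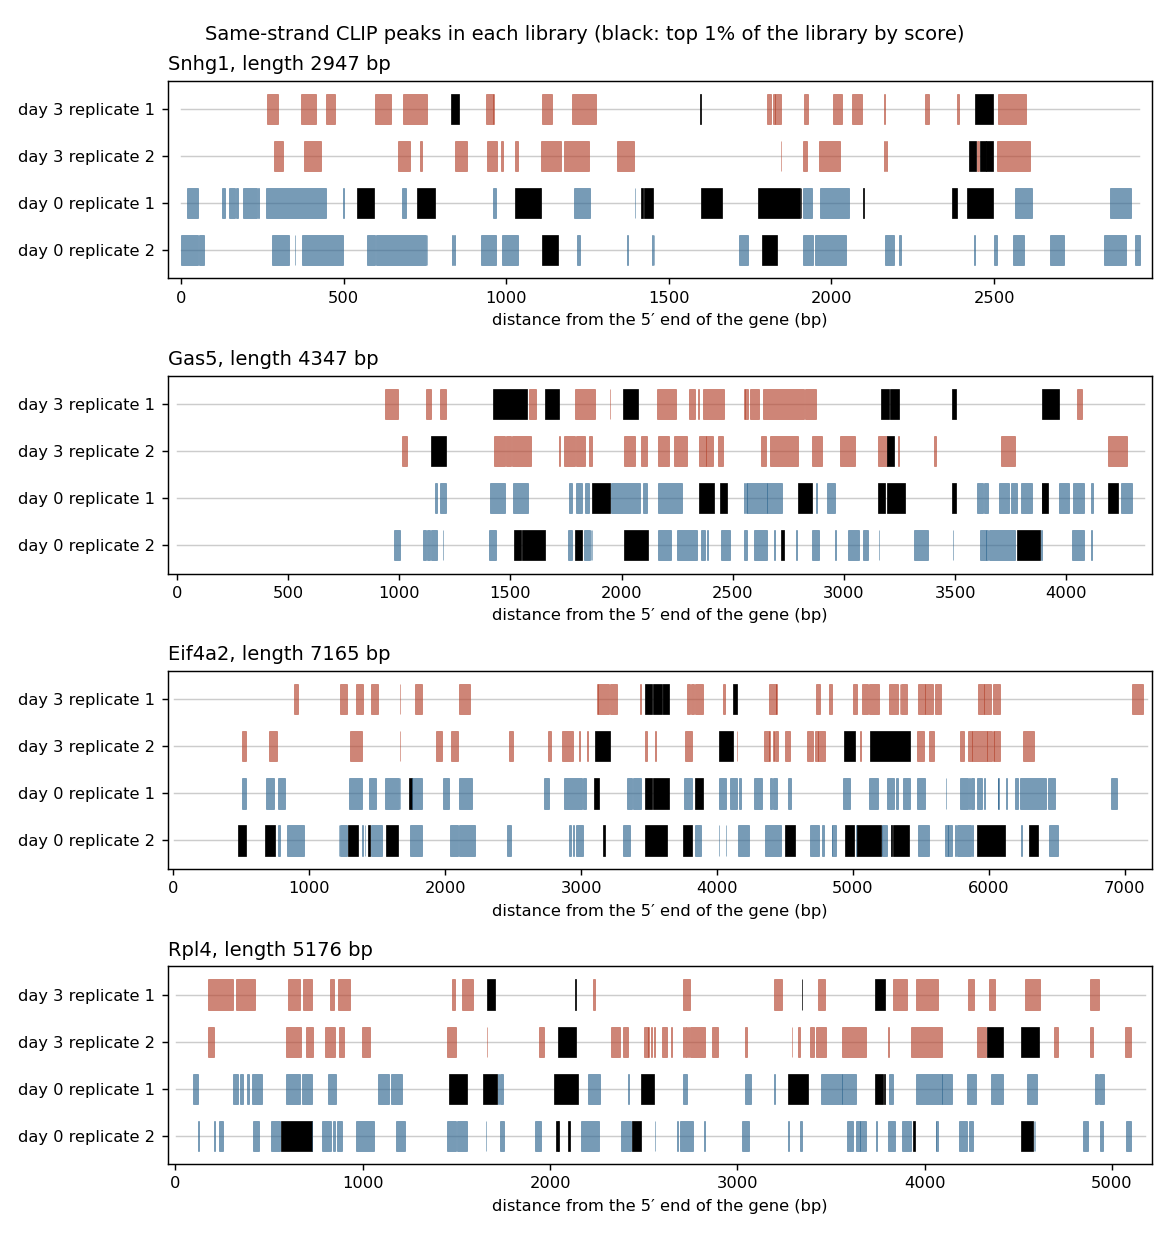
Same-strand CLIP peaks along each host gene, with the distance from its 5′ end in bp on the horizontal axis and 1 row per library, day 3 (red) above day 0 (blue). Black bars are peaks among the top 1% of the library by the authors' score. Gas5 has no peak before base 935 in any library, and black bars of several libraries line up at base 2417 to 2496 in Snhg1, 3152 to 3272 in Gas5, 3469 to 3649 in Eif4a2 and 2021 to 2147 in Rpl4.

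The peaks were unevenly spread. With each gene divided into 4 equal segments, peaks covered 5.52% and 1.93% of the most 5′ segment of Gas5 at day 3, and 0% and 2.39% at day 0. Segment 3 of Gas5 had 52.3% and 48.0% at day 3, and 51.8% and 36.7% at day 0. The 5′ part of Gas5 was thus nearly free of peaks in all 4 libraries, with the first peak starting at base 935 and 1013 at day 3, and at base 1160 and 977 at day 0, counted from 1 at the 5′ end. RefSeq also gives Gas5 a downstream start, whose mm9 position was not used, so how much of this 5′ part is transcribed was not tested. Of the 16 segments of the 4 genes, 8 had both day 3 libraries below both day 0 libraries and 0 had both above, without scaling to list size. The share over segments of all regions was not computed and the rule used these peaks, so nothing is read from these counts. The 8 segments were spread along the genes, namely segments 1, 3 and 4 of Snhg1, 4 of Gas5, 1, 2 and 4 of Eif4a2, and 2 of Rpl4. Among the wider gaps, segment 1 of Snhg1 had 28.8% and 16.4% covered at day 3, against 51.6% and 56.1% at day 0, and segment 3 had 14.8% and 11.5% at day 3, against 43.1% and 31.6% at day 0. Segment 4 of Gas5 had 11.1% and 13.8% at day 3, against 38.8% and 35.2% at day 0, and segment 1 of Eif4a2 had 10.8% and 9.88% at day 3, against 24.9% and 34.5% at day 0. In Rpl4 no segment was empty, and single segments ranged from 10.6% to 40.2%.

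Many host peaks recurred in every library. Of 537 peaks in the 4 genes, 181 (33.7%) overlapped a peak of each of the other 3 libraries by at least 1 bp, against 1.91% of all 599274 peaks of the 4 lists. Dense genes share peaks more often whatever the positions, and this share was part of the choice of the genes. It was highest in Gas5 with 52 of 122 peaks (42.6%), followed by Snhg1 with 36 of 100, Eif4a2 with 56 of 175 (32.0%) and Rpl4 with 37 of 140 (26.4%). Where the overlap had to reach 0.5 of both peaks, 12 of the 537 peaks were shared, so few recurring peaks matched over most of their length in every list.

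Counted in bases, 136 bases of Snhg1 (4.61%), 235 of Gas5 (5.41%), 274 of Eif4a2 (3.82%) and 182 of Rpl4 (3.52%) lay in peaks of all 4 libraries. If the libraries were placed independently along the gene, the product of their 4 covered shares would give 0.64% in Snhg1, 0.675% in Gas5, 0.583% in Eif4a2 and 0.517% in Rpl4. The ratio of observed to product was 7.21 in Snhg1, 8.01 in Gas5, 6.56 in Eif4a2 and 6.80 in Rpl4. Repeated positions were part of the choice of the genes. The product also ignores uneven spread common to the libraries, such as the nearly empty 5′ part of Gas5. The ratio is therefore a description and not a test. The other 26 of the 30 regions with the highest mean density had a median ratio of 8.60 and a range of 0 to 47.2, so the hosts lay within the range of other dense regions. Bases in at least 1 library made up 64.7% of Snhg1, 57.1% of Gas5, 56.8% of Eif4a2 and 61.7% of Rpl4.

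These bases formed 57 unbroken positions of 1 to 61 bp with a median of 8 bp, 9 in Snhg1, 14 in Gas5, 22 in Eif4a2 and 12 in Rpl4. A short break in the peaks of 1 library splits a position, as between base 4415 to 4418 and base 4420 to 4421 in Eif4a2. The counts, which also follow gene length, are thus not numbers of distinct sites. The longest in Snhg1 was base 379 to 415, and the longest in Gas5 was base 2165 to 2214. In Eif4a2 it was base 5125 to 5182 and in Rpl4 base 603 to 663. The positions of Gas5 all fell between base 1197 and 2722, whereas those of Snhg1 ran from base 285 to 2592, those of Eif4a2 from base 1344 to 6076 and those of Rpl4 from base 603 to 4589. The score of the peaks over them, which is the authors' value and ranks peaks within 1 list only, was mostly moderate. The Rpl4 position at base 603 to 663 ranked 37886 and 10293 in day 3 replicates 1 and 2, and 13003 and 1014 in day 0 replicates 1 and 2. The Eif4a2 position at base 5125 to 5182 ranked higher, at 5796 and 990 at day 3, and 10740 and 408 at day 0.

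Exact peak bounds also recurred. Of the 537 host peaks, 61 (11.4%) ended at the same 3′ base as a peak of another library and 44 (8.19%) started at the same 5′ base. In the whole lists, where peaks are far sparser, these shares were 1.22% and 1.11%. In Gas5, 21 of 122 peaks shared a 3′ base, against 8 that shared a 5′ base. In Snhg1 the counts were 7 and 9 of 100 peaks, in Eif4a2 17 and 17 of 175, and in Rpl4 16 and 10 of 140. Both bounds were the same for 3 pairs of peaks: Gas5 base 3484 to 3502 in the replicate 1 libraries of both days, Eif4a2 base 1225 to 1274 in day 3 replicate 1 and day 0 replicate 2, and Rpl4 base 1449 to 1498 in the replicate 2 libraries of both days.

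Host peaks were often among the highest-scoring of their lists. The top 1% by score took in 19 of 105 host peaks (18.1%) in day 3 replicate 1 and 12 of 122 (9.84%) in day 3 replicate 2, against 34 of 145 (23.4%) in day 0 replicate 1 and 30 of 165 (18.2%) in day 0 replicate 2. By construction 1% of each whole list is in that class. The genes were chosen for their dense peaks, so these shares are a description. Grouped within 10 bp, these peaks gave 49 tall positions, 10 in Snhg1, 13 in Gas5, 16 in Eif4a2 and 10 in Rpl4. The median distance between neighbouring tall positions was 210.5 bp in Snhg1, 273.25 bp in Gas5, 249.5 bp in Eif4a2 and 413 bp in Rpl4. Of the 49, 20 held tall peaks of at least 2 libraries, 6 of at least 3 and 16 of both days. Grouping chained peaks across libraries, so tall peaks of different libraries in 1 position need not share a base. In Snhg1, for example, base 1597 in day 3 replicate 1 was joined to base 1598 to 1662 in day 0 replicate 1. The counts here are of positions so grouped and not of overlapping peaks. By pair of libraries, replicate 1 of day 3 and replicate 1 of day 0 had 10 tall positions in common, the replicates of day 3 had 4, the replicates of day 0 had 7, and the replicate 2 libraries of both days had 5. Day 3 replicate 1 and day 0 replicate 2 had 5 in common, and day 3 replicate 2 and day 0 replicate 1 had 4.

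In Snhg1 the tallest position at day 3 lay near the 3′ end, at base 2417 to 2496, where the best peak scored 6333 (rank 60) and 2635 (rank 185) in day 3 replicates 1 and 2, against 3929 (rank 157) and 678 (rank 5114) in day 0 replicates 1 and 2. In 3 libraries a peak over it ended at base 2496. Day 0 replicate 1 had its best Snhg1 peak elsewhere, at base 1774 to 1901 with a score of 20258, rank 11 of that list. The best peak of Snhg1 in day 0 replicate 2, at base 1786 to 1833, overlapped it with a score of 1484 (rank 355), and no day 3 peak there was in the top 1%. In day 0 replicate 1, 12 of 28 Snhg1 peaks (42.9%) were in the top 1% of the list, against 3, 3 and 2 in the other libraries.

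The highest score over Gas5 lay at base 3152 to 3272, where the best peak scored 3717 (rank 132) and 3560 (rank 94) at day 3, against 12031 (rank 32) and 539 (rank 13068) at day 0. It was in the top 1% of both day 3 libraries and of day 0 replicate 1, and held the best Gas5 peak of day 3 replicate 2 and day 0 replicate 1. In day 3 replicate 1 the best Gas5 peak was at base 1656 to 1717, with a score of 3865 (rank 121), and in day 0 replicate 2 it was at base 2012 to 2117, with a score of 1981 (rank 181). The peak at base 3484 to 3502 scored 3623 (rank 139) in day 3 replicate 1 and 3402 (rank 192) in day 0 replicate 1, and day 3 replicate 2 had no peak there.

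Eif4a2 had its tallest position at base 3469 to 3649 in 3 of the 4 libraries. There the best peak scored 9431 (rank 37) and 950 (rank 10729) in day 3 replicates 1 and 2, against 4986 (rank 113) and 5978 (rank 46) in day 0 replicates 1 and 2. Day 3 replicate 2 had its best Eif4a2 peak at base 3099 to 3213 instead, with a score of 3240 (rank 113), over a position that was also tall in both day 0 libraries. The 5 tall positions between base 477 and 1653 were tall in day 0 replicate 2 alone.

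Rpl4 held the only tall position with top 1% peaks from all 4 libraries, base 2021 to 2147. No base of it lay in peaks of all 4. Its peak in day 3 replicate 1 was at base 2135 to 2137. The peaks of day 0 replicate 2, at base 2033 to 2039, 2041 to 2045 and 2097 to 2104, did not overlap that peak. The best peak of the position scored 2341 (rank 315) and 2516 (rank 225) at day 3, against 9347 (rank 44) and 1212 (rank 624) at day 0. A position upstream, base 1640 to 1717, was tall in both replicate 1 libraries, with 4144 (rank 110) at day 3 and 14486 (rank 29) at day 0, and was not in the top 1% of either replicate 2 library. The same held for base 3737 to 3786, with 6167 (rank 61) in day 3 replicate 1 and 3153 (rank 211) in day 0 replicate 1. Conversely, base 4512 to 4607 was in the top 1% of both replicate 2 libraries, with 1932 (rank 584) at day 3 and 1521 (rank 338) at day 0. Base 2439 to 2555 was instead in the top 1% of both day 0 libraries, with 2801 (rank 262) and 981 (rank 1245), and of neither day 3 library. Of the other 5 tall positions of Rpl4, base 3271 to 3374 was tall in both replicate 1 libraries and the rest in 1 library each.

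**Figure D3:**
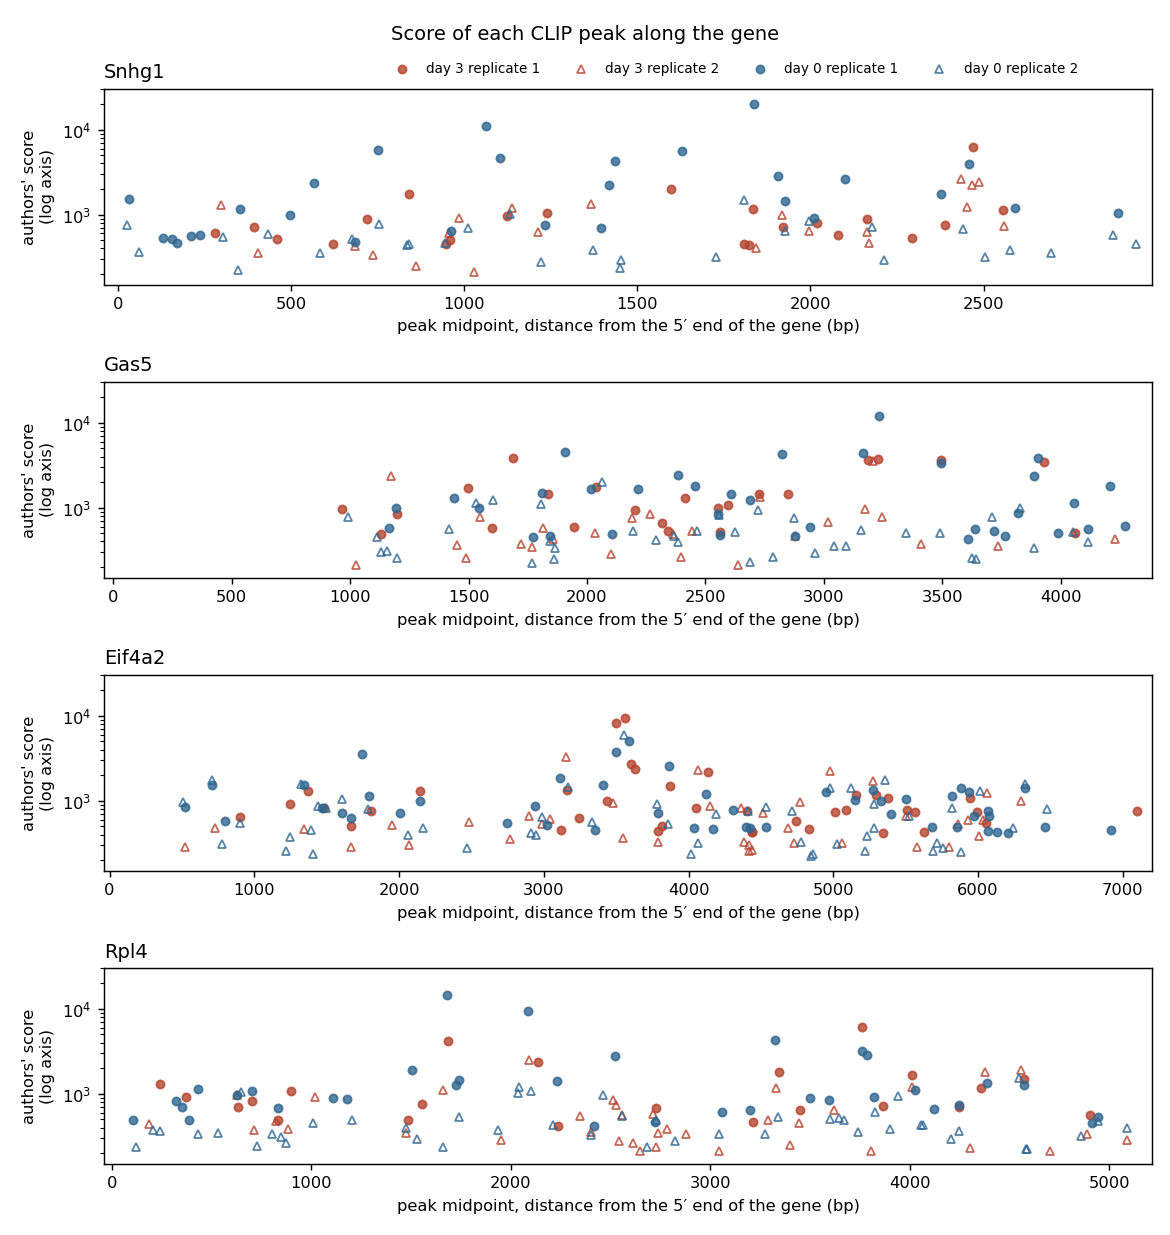
Authors' score of each CLIP peak (vertical axis, log scale) against its midpoint as distance from the 5′ end of the gene in bp, for day 3 (red) and day 0 (blue), replicate 1 as filled circles and replicate 2 as open triangles. Scores rank peaks within 1 library and are not comparable between libraries. The highest points are single-library values. They are day 0 replicate 1 peaks at base 1774 to 1901 in Snhg1, 3192 to 3272 in Gas5 and 1640 to 1717 in Rpl4, and a day 3 replicate 1 peak at base 3531 to 3595 in Eif4a2.

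All 4 hosts ranked high in nuclear RNA, each with 1 row per day on the plus strand and no row under 300 bp. Snhg1 had 832.8 FPKM at day 3 and 599.7 FPKM at day 0, the highest of the 4 at both days. Rpl4 was second, with 197.1 FPKM at day 3 and 177.0 at day 0. Gas5 had 50.4 FPKM at day 3 and 20.7 at day 0, and Eif4a2 had 43.6 at day 3 and 48.4 at day 0, so these 2 changed places between the days. FPKM is per length, and with 1 library per day none of these steps has a replicate check. Among the regions of at least 1 kb of the day, Snhg1 stood at percentile 98.2 of 17124 at day 3 and 97.4 of 18649 at day 0. Gas5 stood at percentile 94.8 at day 3 and 89.4 at day 0, Eif4a2 at 94.1 at day 3 and 94.5 at day 0, and Rpl4 at 97.5 at day 3 and 96.6 at day 0. Snhg1 and Eif4a2, the highest and the lowest of the 4 in FPKM at day 3, had mean CLIP densities over both days within each other's spread. At day 0 the lowest was Gas5. The genes were chosen for high density, so how density relates to RNA level was not tested.

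On the log2(FPKM + 1) scale, day 3 minus day 0 was 1.24 in Gas5, 0.47 in Snhg1, 0.15 in Rpl4 and -0.15 in Eif4a2. Gas5 was the only host past a change of 1, which 18.2% of 16254 regions listed at both days passed upwards and 14.6% passed downwards. The median region changed by 0.15. No host passed the fold downwards. Rows pooled assembled transcripts, 3 in Snhg1 and 2 in Gas5 at both days, 2 at day 3 and 3 at day 0 in Eif4a2, and 1 in Rpl4. The Gas5 row began at 162964324 at day 3 and at 162964471 at day 0, so its value covers slightly different spans. Ribosomal protein genes such as Rpl4 generally have near-identical processed copies elsewhere in the genome, and how the authors treated reads that match several places was not stated in the labels. In these bulk lysates, fewer cells expressing a gene and less RNA per cell cannot be told apart.

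**Figure D4:**
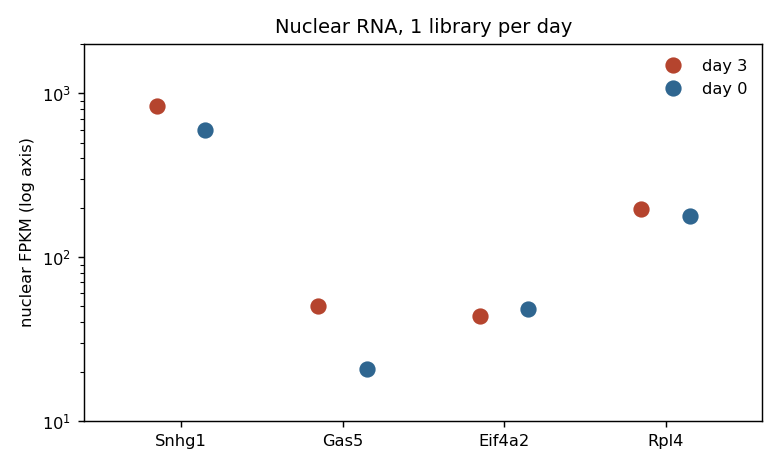
Nuclear RNA level in FPKM (vertical axis, log scale) of the 4 host genes at day 3 (red) and day 0 (blue), 1 library per day, so no error bar. Gas5 has the widest gap between days, 50.4 FPKM at day 3 and 20.7 at day 0.

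CTCF bound to DNA was looked for at the starts of the hosts. No ChIP peak lay within 500 bp of the start of any of the 4 genes in the day 3 library or in either day 0 library. Of 19519 regions of at least 1 kb, 16.4% had such a peak at day 3, and 14.2% and 27.4% in day 0 replicates 1 and 2. The nearest peak to the Snhg1 start was 3270 bp away at day 3, and 3869 and 1246 bp away in day 0 replicates 1 and 2. For Gas5 the distance was 51613 bp at day 3, and 4689 and 4331 bp at day 0. For Eif4a2 it was 17577 bp at day 3, and 17624 and 3452 bp at day 0. For Rpl4 it was 4330 bp at day 3, and 4450 and 4047 bp at day 0, in each case to a peak over the other end of the gene.

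At the 3′ end Rpl4 had a ChIP peak in all 3 libraries. It spanned chr9:64025524-64028405 at day 3 with an authors' score of 20.97, and at day 0 chr9:64025644-64028073 with 31.2 and chr9:64025241-64028574 with 31.5. A peak within 500 bp of the end was seen in 12.5% of regions at day 3, and in 11.6% and 21.4% in the day 0 libraries. Rpl4 was the 1 host with such a peak at day 3 and in day 0 replicate 1, while all 4 hosts had one in day 0 replicate 2, the largest list. The peaks seen only in day 0 replicate 2 had low scores: 12.4 in Snhg1 (chr19:8799232-8804099), 9.16 in Gas5 (chr1:162968655-162970383), and 11.7 (chr16:23113749-23117022) and 8.997 (chr16:23110810-23111809) in Eif4a2, where the median of that list was 16.6. The last of these lies over the tall CLIP position of Eif4a2 at base 3469 to 3649.

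**Figure D5:**
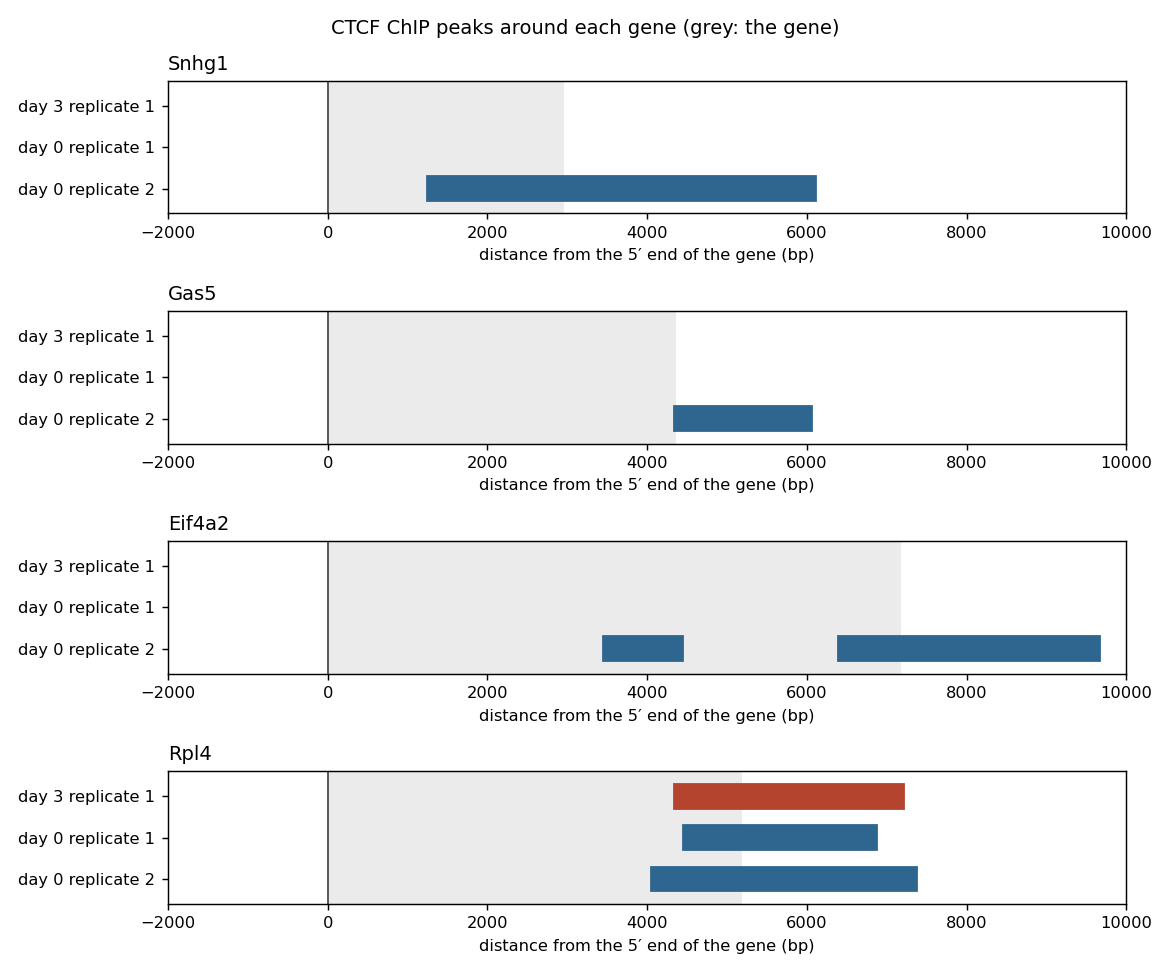
CTCF ChIP peaks (bars) around each host gene, with distance from the 5′ end in bp on the horizontal axis, the gene shaded grey, and 1 row per library with day 3 (red) above day 0 (blue). No bar reaches a start, and the Rpl4 3′ end is the 1 place with a bar in all 3 libraries.

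The plus-strand allelic CLIP list took in the chromosomes of the hosts in day 0 replicate 1, and in the other 3 libraries the lists used held no peak on them. Chromosome shares below are therefore of plus-strand peaks in that library. In Eif4a2, 2 of 17 assigned peaks (11.8%, exact 95% interval 1.46 to 36.4) were listed for the CAST allele, against 46.2% over chromosome 16. In Gas5 it was 4 of 18 (22.2%, 6.41 to 47.6), against 47.2% on chromosome 1. In Rpl4 it was 4 of 11 (36.4%, 10.9 to 69.2), against 47.3% on chromosome 9, and in Snhg1 6 of 9 (66.7%, 29.9 to 92.5), against 49.0% on chromosome 19. The interval of Eif4a2 lies below its chromosome's share, and those of the other 3 hosts include it. Intervals cover counting error only, neighbouring peaks of a gene are not independent, and with 1 library the difference has no replicate check.

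By the profile of log2 scaled density over the 4 CLIP libraries, the hosts were mostly nearest to each other. The nearest region to Snhg1 was Eif4a2, at a Euclidean distance of 0.35, followed by Rpl4 at 0.48 and Gas5 at 0.52. Rpl4 was nearest to Gas5 at 0.39 and to Eif4a2 at 0.46. Gas5 was nearest to chr5:143664794-143668433 on the minus strand at 0.22, ahead of Rpl4, with chr7:3220021-3221346 on the plus strand next at 0.44. These distances use the same densities that chose the genes, so nearness among them is a description.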

How the data were processed

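The 4 genes and the lists of comparisons were chosen with earlier results of these data known. Sample titles gave the groups and replicate numbers. Cufflinks 2.1.1, Novoalign 3.00.03, bedtools 2.17.0, TopHat2 2.0.8, SAMtools 0.1.18, cutadapt 1.0 and Trim Galore 0.3.3, with genome build mm9, are named in no order per the submitters' processing notes, and no peak caller is named there. The peak lists deposited by the authors hold a score per peak, used only to rank peaks within a list. The value in the deposited RNA lists was read as FPKM, a unit the files do not name. The deposited allelic lists were used for the number of peaks listed per allele.

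Rows on chromosomes 1 to 19 and X that overlapped on 1 strand were merged into regions. For levels and changes of nuclear RNA, a region's FPKM was that of its longest row on the strand, and changes are on the log2(FPKM + 1) scale. Same-strand peak bases were counted per region and library. Density ranks used regions of at least 1000 bp whose highest row had an FPKM of at least 1. This held at either day for ranks in mean density, and at the library's own day for ranks in single libraries. Day 3 and day 0 CLIP were compared by limma 3.58.1 (R 4.3.3, trend on, two-sided) with a pseudocount of 1, regions with peaks in at least 2 libraries, and calls at a Benjamini-Hochberg adjusted p of 0.05. Folds of low regions are understated on this scale. On simulated data, the fit recovered 141 of 200 regions changed by a log2 of 3 among 12325. Intervals are exact Clopper-Pearson 95%. Described regions were the 4 genes, the regions next to them in density rank, and for each the 3 nearest in density profile. Tall positions, shared peak bounds, gene segments, gene ends and the widening of peaks were chosen after values were seen. Scripts ran in Python 3.11.15 with SciPy 1.17.1, NumPy 2.4.6, pandas 2.3.3 and matplotlib 3.10.9. Alternatives covered pseudocount, scaling, filters, peak score, overlap, windows, the replicate number as a block and each library left out in turn.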

Additional observations from a re-analysis of the deposited data

How the results depend on the processing

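With all 4 libraries, none of the 4 hosts was called between day 3 and day 0 under any alternative. Leaving out 1 library, which leaves a day with 1 sample assumed to vary like the other day's pair, moved the number of regions called by limma over 0 to 377, with 0 in the fit of all 4 libraries. The log2 difference of day 3 over day 0 changed sign in Gas5 to 0.036 with scaling to the number of peaks, 0.30 without day 3 replicate 2 and 0.49 without day 0 replicate 1, and in Rpl4 to 0.36 without day 0 replicate 1. Without day 0 replicate 2 it was lowest in both, at -0.53 in Gas5 and -0.66 in Rpl4. The cause was not tested. With the replicate number as a block, 0 of 12325 regions were called and 1252 had an unadjusted p under 0.05, against 899 without it, and the hosts' adjusted p ran from 0.783 to 0.999. Deviations from the day means of same-numbered libraries had a correlation of 0.0178. With 2 libraries a day the deviations of replicate 2 mirror those of replicate 1, so both numbers give this 1 value. Across the 12325 regions it shows little deviation common to same-numbered libraries. It does not say whether those libraries shared a culture or a day of work. The number of host peaks recurring in all 4 libraries, 181, was 12 where the overlap had to reach 0.5 of both peaks, 102 among peaks at or above the median score of their list and 272 with peaks widened by 10 bp on each side, an alternative chosen after seeing the data. Without 1 library it was 164 to 194 over the remaining 3. Within 2000 bp of a start, 1 ChIP peak was counted, at Snhg1 in day 0 replicate 2, against 0 within 500 bp. Ranks in mean density ranged from 4 to 15 in Snhg1, 6 to 11 in Gas5, 9 to 14 in Eif4a2 and 7 to 19 in Rpl4 over the alternatives. With 1 row per host and day, only the pseudocount could move the hosts' changes in nuclear RNA, and with 0.1 in place of 1 Gas5 was 1.28 against 1.24. With 2 CLIP libraries a day, 1 RNA library a day and unknown depth, only large differences can be resolved. Libraries without UV were not analysed here, so no background stands beside the peaks, and peaks were not placed on snoRNAs, exons or introns.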
